A study of Homo sapiens with 12 samples.

Results

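The MHC class I presentation pathway is described here by 9 genes, chosen by symbol: the heavy chains HLA-B, HLA-C and HLA-E, the light chain B2M, the peptide transporter subunits TAP1 and TAP2, tapasin (TAPBP), and the immunoproteasome subunits PSMB8 and PSMB9. All 9 had a row among the 12931 rows of the deposited tables. RNA sequencing was run on WM1366, an established human melanoma line that carries an NRAS mutation, in 12 libraries. There were 4 libraries of combination R1, 4 of combination R2 and 4 of the control, hereafter R1, R2 and control. R1 and R2 carry the diet label of a combined MEK and CDK4/6 inhibitor, and the control libraries carry the label of the control diet. What separates R1 from R2 is not given in the labels, beyond their names. The series describes xenograft tumours that were progressing, while the sample labels describe melanoma cells grown in culture. The treatment text names Palbociclib (PD0332991), a CDK4/6 inhibitor, at 0.1 uM and PD0325901, a MEK inhibitor, at 1 nM for all 12 samples, control samples included. The host, the number of tumours, and whether the replicates of a group came from separate tumours or cultures are not stated, so p-values measure only the spread between these libraries.

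MHC class I molecules show peptides from inside the cell to CD8 T cells, and melanoma cells can escape T cells by losing them. Proteasomes cut proteins into peptides, the TAP1-TAP2 transporter carries the peptides into the endoplasmic reticulum, and tapasin holds the transporter next to an empty heavy chain and B2M pair until a peptide fits. Interferon gamma is a classical inducer of most of these genes, through IRF1 and the transactivator NLRC5, and it exchanges the catalytic subunits PSMB5, PSMB6 and PSMB7 for PSMB8, PSMB9 and PSMB10 in newly made proteasomes.

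Of the 9 genes, 8 lie in the MHC region of chromosome 6, and B2M lies on chromosome 15. TAP2, PSMB8, TAP1 and PSMB9 stand in that order within 38.0 kb, and 487 bases separate the divergent starts of TAP1 and PSMB9. RefSeq promoter windows were matched for 8 of the 9 genes. The 250 bases before the start are shown for 6 of them, so that the elements for which class I genes are known can be seen: HLA-B, B2M, TAP1 and TAPBP, which differed between R2 and R1, and TAP2 and PSMB9, which rose in both groups. They are printed 5' to 3' on the gene's own strand, with coordinates of RefSeq GRCh38.p14. Capitals mark matches to an ISRE-like motif (GAAA, any 2 bases, GAAA, the kind of element that interferon regulatory factors bind) and to the NF-kB consensus, on either strand.
HLA-B (chr6:31357180-31357429, minus strand): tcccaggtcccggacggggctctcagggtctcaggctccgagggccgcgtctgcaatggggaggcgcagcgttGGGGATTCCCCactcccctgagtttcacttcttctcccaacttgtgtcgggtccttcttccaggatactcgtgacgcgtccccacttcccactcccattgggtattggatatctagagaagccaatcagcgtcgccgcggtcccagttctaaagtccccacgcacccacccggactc
B2M (chr15:44711267-44711516, plus strand): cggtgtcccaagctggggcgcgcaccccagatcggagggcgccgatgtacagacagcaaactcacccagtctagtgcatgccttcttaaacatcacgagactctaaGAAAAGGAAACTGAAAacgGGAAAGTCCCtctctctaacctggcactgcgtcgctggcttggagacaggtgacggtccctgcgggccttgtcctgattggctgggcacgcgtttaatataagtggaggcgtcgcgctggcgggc
TAP1 (chr6:32853705-32853954, minus strand): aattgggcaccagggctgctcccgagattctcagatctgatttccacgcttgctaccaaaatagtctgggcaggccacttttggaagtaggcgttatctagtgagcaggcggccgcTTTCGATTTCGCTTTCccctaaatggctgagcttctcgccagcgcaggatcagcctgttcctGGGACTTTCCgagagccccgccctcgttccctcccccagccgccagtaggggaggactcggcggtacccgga
TAP2 (chr6:32838740-32838989, minus strand): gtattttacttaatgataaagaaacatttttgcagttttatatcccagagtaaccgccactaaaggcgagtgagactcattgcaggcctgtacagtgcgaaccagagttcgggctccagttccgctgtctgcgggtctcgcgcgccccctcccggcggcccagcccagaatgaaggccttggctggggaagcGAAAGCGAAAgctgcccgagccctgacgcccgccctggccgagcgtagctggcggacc
TAPBP (chr6:33314079-33314328, minus strand): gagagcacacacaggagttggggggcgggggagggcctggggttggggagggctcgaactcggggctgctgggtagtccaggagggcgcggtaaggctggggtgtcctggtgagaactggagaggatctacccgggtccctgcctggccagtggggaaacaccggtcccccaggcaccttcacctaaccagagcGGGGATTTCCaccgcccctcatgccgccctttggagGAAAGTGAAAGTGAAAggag
PSMB9 (chr6:32853942-32854191, plus strand): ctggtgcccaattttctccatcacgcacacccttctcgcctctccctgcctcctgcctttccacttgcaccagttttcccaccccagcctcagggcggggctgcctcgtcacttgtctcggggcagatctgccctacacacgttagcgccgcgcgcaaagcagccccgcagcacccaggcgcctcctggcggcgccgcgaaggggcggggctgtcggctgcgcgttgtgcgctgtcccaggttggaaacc

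The ISRE-like motif was searched on both strands of the 300 bases from 250 before to 50 after each start, and 3.57% of 35116 RefSeq promoter windows held it. It was found in the windows of 5 of the 8 genes, namely B2M, TAP1, TAP2, TAPBP and the second listed start of PSMB8. The pattern is strict and misses elements that depart from its letters. Windows without a match, such as those of HLA-B and HLA-C, may still hold such an element. B2M held overlapping copies beginning at -144 and -138, TAP1 overlapping copies at -134 and -128 on the opposite strand, and TAPBP overlapping copies at -20 and -14, with positions counted from the start. TAP2 held a single copy at -58. The NF-kB consensus, present in 11.3% of all windows, was found in HLA-B, HLA-C, B2M, TAP1 and TAPBP. The CRE core TGACG, in 24.6% of windows, was found in HLA-B, HLA-C, B2M, TAP2, PSMB8 and PSMB9, and CCAAT, in 34.6% of windows, in HLA-B, HLA-C, B2M, TAP1 and PSMB9. In the PSMB9 window the letters of the ISRE-like and NF-kB motifs were not present. The marked TAP1 matches lie in the 487 bases between the starts of TAP1 and PSMB9, outside the PSMB9 window. These are matches of letters in the reference, and binding was not measured.

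Values are the authors' library-scaled signal, scaled to an adjusted library size (CPM). The recovered reads in the listed genes came to 20003891 to 39009384 per library. Changes are given on the log2(value + 0.5) scale from limma, and a gene is said to rise or fall at a Benjamini-Hochberg adjusted p under 0.05 over 12931 rows. Some libraries stood apart within their groups: R1 replicate 2 was the highest R1 library for 6 of the 9 genes, against 33.4% of all genes, and control replicates 3 and 4 both lay above control replicates 1 and 2 for 7 of the 9, against 29.7% of all genes. These libraries were singled out after seeing the data, which raises the counts for the 9 genes, so the counts are a description. Reads from mitochondrial genes made up 2.17 to 3.28% in R1, 4.02 to 9.63% in R2 and 5.86 to 10.9% in control. Markers of other cells were listed too, since bulk RNA of a tumour can hold them. WM1366 is a human line, the build is human, the host is not stated, and the labels also describe cultured cells. Values of these markers therefore cannot be told apart from expression in the melanoma cells, and they are not counts of other cells. Fewer cells of a type also cannot be told apart from less RNA per cell. Only 3 of 23 leukocyte markers had a row (CSF1R, LCP1 and CORO1A), and their summed value, most of it CORO1A, was 16.1 to 23.3 in R1, 10.8 to 20.5 in R2 and 8.06 to 11.2 in control. The 3 markers did not share a direction. CORO1A averaged 16.3 in R1, 9.4 in R2 and 5.86 in control, LCP1 0.652, 5.07 and 1.3, and CSF1R 2.87, 0.539 and 1.98. Of 10 endothelial markers 4 had a row, with sums of 375 to 499 in R1, 126 to 157 in R2 and 133 to 172 in control. Nearly all of that sum was TIE1, and among the others EGFL7 averaged 16.2 in R1, 0.00727 in R2 and 3.61 in control, and PECAM1 2.55, 0.697 and 2.26. Of 10 fibroblast and pericyte markers 5 had a row, with sums of 86.2 to 156 in R1, 100 to 331 in R2 and 233 to 327 in control. That sum was mostly COL1A1, while PDGFRB averaged 5.05 in R1, 0.331 in R2 and 4.03 in control. Of 10 melanocyte-lineage markers 4 had a row (MITF, PMEL, CSPG4 and MCAM), with sums of 702 to 808 in R1, 850 to 996 in R2 and 862 to 967 in control. MCAM made up most of it, and PMEL (27.1 in R1, 8.81 in R2 and 5.32 in control) and CSPG4 (87, 13.3 and 27.2) were highest in R1. The part of these shifts in the class I results was not tested.

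In R1 against control, 5 of the 9 genes rose (TAP1, TAP2, PSMB8, PSMB9 and HLA-E) and TAPBP fell. Of all genes, 43.8% were called in this comparison, 22.4% risen and 21.4% fallen. In R2 against control, 3 of the 9 rose (TAP1, TAP2 and PSMB9) and B2M fell, where 28.4% of all genes were called, 13.6% risen and 14.8% fallen. In R2 against R1, HLA-B, HLA-E, B2M, TAP1 and PSMB8 fell and TAPBP rose, where 46.8% of all genes were called, 22.8% risen and 24% fallen. The median log2 change of the 9 genes was 0.69 in R1 against control, with 0.01 over all genes. It was 0.04 in R2 against control, with 0.03 over all genes, and -0.42 in R2 against R1, with -0.00 over all genes. The ranges of the 4 and 4 libraries did not overlap for 6, 4 and 6 of the 9 genes in these 3 comparisons, where 39.7%, 34.8% and 39.4% of all genes did not overlap. With R1 replicate 2 and control replicates 3 and 4 left out together, a choice made after seeing the data, 6 rose and 1 fell in R1, 3 rose and 1 fell in R2, and 1 rose and 5 fell in R2 against R1, the added call in R1 being HLA-B. The comparisons with control share the control libraries, and those with R1 share the R1 libraries.

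**Figure D1:**
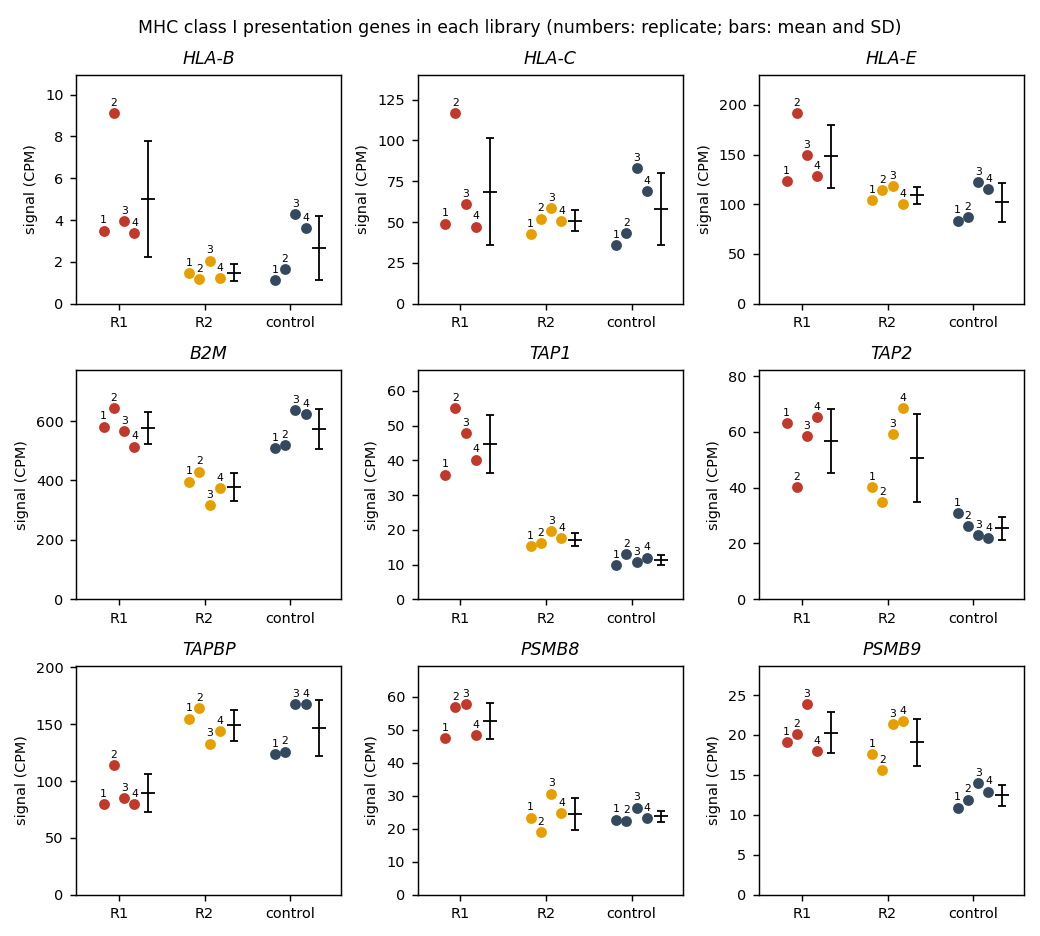
Values (library-scaled signal, CPM) of the 9 genes in each of the 12 libraries, with R1 left of R2 and control, each panel on its own axis from 0, replicate numbers over the points and bars for the mean and SD. TAP1 lies between 35.9 and 55 in R1, between 15.4 and 19.6 in R2 and between 9.9 and 12.9 in control, while TAPBP lies between 79.5 and 114 in R1, below every R2 and control library.

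Both transporter genes rose in both combination groups, and TAP1 had the largest log2 change of the 9 genes in R1. TAP1, an ATP-binding subunit of the peptide transporter (chromosome 6, 32845209 to 32853704), had values of 35.9, 55, 47.8 and 40.2 in R1, 15.4, 16.2, 19.6 and 17.5 in R2 and 9.9, 12.9, 10.6 and 12 in control. The 3 groups did not overlap, with R1 highest and control lowest. Its mean was 3.94-fold higher in R1 than in control (log2 change 1.92 ± 0.14 SE, adjusted p = 1.78e-07). In R2 it was 1.51-fold higher than in control (0.58 ± 0.14 SE, adjusted p = 0.00742), and 2.6-fold lower than in R1 (-1.34 ± 0.14 SE, adjusted p = 5.79e-06).

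TAP2, its partner subunit (32821831 to 32838739), had values of 63.1, 40.3, 58.4 and 65.4 in R1, 40.1, 34.7, 59.2 and 68.5 in R2 and 30.9, 26.1, 22.9 and 21.8 in control. Every R1 and R2 library lay above every control library, and the R1 and R2 ranges overlapped. The mean was 2.23-fold higher in R1 than in control (log2 change 1.13 ± 0.21 SE, adjusted p = 0.000616) and 1.99-fold higher in R2 than in control (0.94 ± 0.21 SE, adjusted p = 0.00396). Between R2 and R1 the change was -0.19, with a 95% interval of -0.64 to 0.25 (adjusted p = 0.472). The group means of the partner subunits had the same order, with R2 of TAP1 nearer to control and R2 of TAP2 nearer to R1, a difference in spacing that was not tested. R1 replicate 2, the highest R1 library for TAP1, was the lowest for TAP2.

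**Figure D2:**
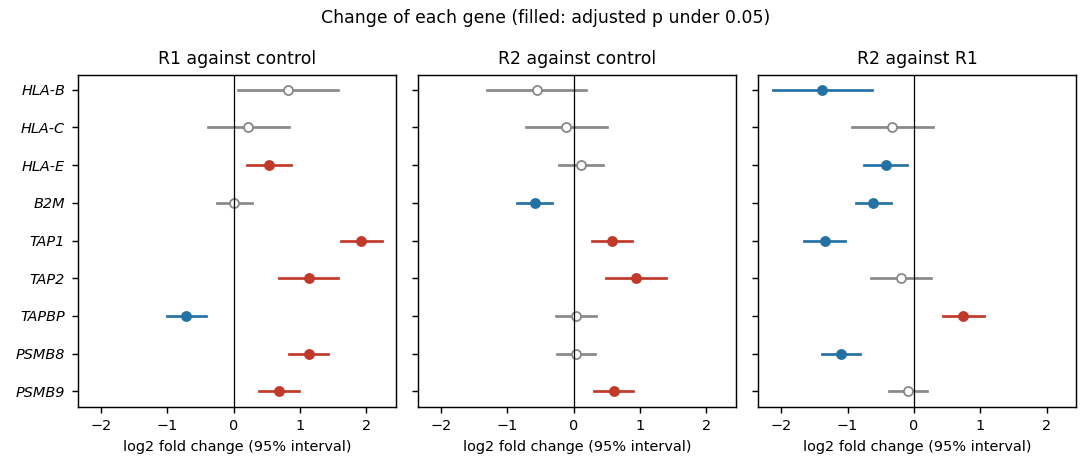
Log2 fold changes of the 9 genes with 95% confidence intervals from limma, for R1 against control, R2 against control and R2 against R1, with filled marks where the adjusted p is under 0.05. TAP1 has the largest change in R1 (1.92), and TAPBP is the gene whose change in R2 against R1 is positive and called (0.74).

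Both immunoproteasome subunits rose in R1, and in R2 PSMB9 rose while the change of PSMB8 missed the threshold. PSMB8, which supplies the chymotrypsin-like site of the immunoproteasome (32840717 to 32844679), had values of 47.4, 56.9, 57.9 and 48.3 in R1, 23.4, 19, 30.7 and 24.8 in R2 and 22.8, 22.5, 26.4 and 23.3 in control. All R1 libraries stood above all others, and the R2 values spread around those of control. The mean was 2.22-fold higher in R1 than in control (log2 change 1.13 ± 0.14 SE, adjusted p = 1.62e-05) and 2.15-fold lower in R2 than in R1 (-1.10 ± 0.14 SE, adjusted p = 2.04e-05). In R2 against control the change was 0.03, with a 95% interval of -0.26 to 0.32 (adjusted p = 0.905).

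PSMB9, the subunit exchanged for PSMB6 (32854192 to 32859851), had values of 19.1, 20.1, 23.9 and 18 in R1, 17.6, 15.6, 21.4 and 21.7 in R2 and 10.9, 11.9, 14 and 12.9 in control. The control libraries lay below all 8 libraries of the combination groups, which overlapped each other. The mean was 1.64-fold higher in R1 than in control (log2 change 0.69 ± 0.14 SE, adjusted p = 0.00114) and 1.54-fold higher in R2 than in control (0.60 ± 0.14 SE, adjusted p = 0.00495). Between R2 and R1 the change was -0.09, with a 95% interval of -0.38 to 0.20 (adjusted p = 0.618). PSMB9 thus separated control from both combination groups, as TAP2 did, and PSMB8 separated R1 from both other groups.

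The catalytic exchange was also read as a ratio within each library, which does not depend on library scaling. PSMB9 stood at 21.6, 24.8, 18 and 18.7% of PSMB6 in R1, 26.1, 27.3, 28.3 and 34.3% in R2 and 7.26, 8.25, 9.78 and 10.9% in control. The 3 groups did not overlap, and R2 was highest. The ratio was 2.27-fold higher in R1 than in control and 3.17-fold higher in R2 than in control, and 1.4-fold higher in R2 than in R1, each with an exact two-sided permutation p of 0.0286, the smallest that 4 against 4 libraries can give, and 0.0643 after adjustment over the 9 ratio comparisons. These ratios moved with their denominator: PSMB6, a subunit of the constitutive proteasome, fell in R1 (log2 change -0.49, adjusted p = 0.0131) and in R2 (-1.07, adjusted p = 8.57e-05) against control. PSMB6 lies on chromosome 17, and of the 34 other tested genes within 1 Mb of it 24 fell and 1 rose in R1, and 31 fell and 1 rose in R2.

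PSMB8 stood at 27.5, 34.2, 24.9 and 26.4% of PSMB5 in R1, 23.4, 24.3, 26.4 and 26.1% in R2 and 20.1, 21.7, 24.5 and 23.3% in control. R1 lay just above the control range, and R2 overlapped both. The log2 difference was 0.31 in R1 against control (exact permutation p = 0.0286, adjusted 0.0643), smaller than that of PSMB8 itself, since PSMB5 rose in R1 as well (0.81, adjusted p = 0.000182). PSMB10, the third exchanged subunit, was scarce, at a mean value of 3.85 ± 0.454 in R1, 1.71 ± 0.699 in R2 and 4.21 ± 1.28 in control (SD, n = 4 each). It fell in R2 against control (-1.11, adjusted p = 0.00323), so the subunits PSMB8, PSMB9 and PSMB10 did not share a direction in R2. PSMB10 made up 1.37 to 1.89% of PSMB7 in R1, 0.531 to 1.72% in R2 and 1.65 to 2.74% in control, and none of the 9 ratio comparisons passed the adjusted threshold.

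**Figure D3:**
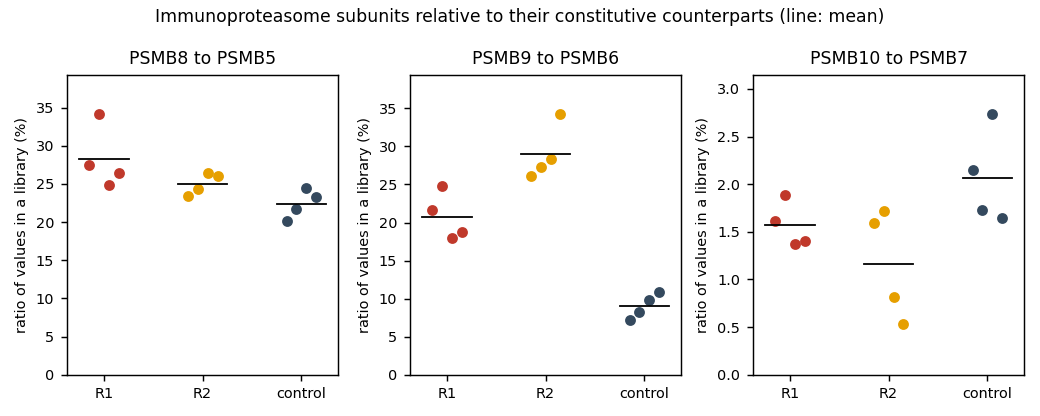
Ratio of each immunoproteasome subunit to its constitutive counterpart in every library (percent), with R1 left of R2 and control and a line at the group mean. The PSMB9 to PSMB6 ratio is 18 to 24.8% in R1, 26.1 to 34.3% in R2 and 7.26 to 10.9% in control, without overlap.

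Among the other genes of the proteasome, the PA28 activator subunits PSME1 (log2 change 0.41, adjusted p = 0.0235) and PSME2 (0.64, adjusted p = 0.000781) and the assembly factor POMP (0.78, adjusted p = 0.0011) rose in R1, so that 3 of 5 further immunoproteasome and PA28 genes rose and none fell. In R2 none of these 5 rose and PSMB10 fell. Of 14 constitutive 20S genes 6 rose and 2 fell in R1, with PSMA7 at 1.05 and PSMA5 at 1.00, and in R2 none rose and 3 fell, with PSMB6 at -1.07 and PSMA4 at -0.79.

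In R1 against control TAPBP moved against the transporter it binds. Tapasin RNA (33299694 to 33314078) had values of 79.5, 114, 85 and 79.7 in R1, 155, 164, 133 and 144 in R2 and 124, 126, 168 and 168 in control. All R1 libraries lay below all others, and R2 overlapped control. The mean was 1.64-fold lower in R1 than in control (log2 change -0.71 ± 0.14 SE, adjusted p = 0.0011). In R2 it was 1.67-fold higher than in R1 (0.74 ± 0.14 SE, adjusted p = 0.000707), and its change against control was 0.04, with a 95% interval of -0.27 to 0.34 (adjusted p = 0.88). The nearest tested genes beside TAPBP, PFDN6 at -0.18 (adjusted p = 0.238) and ZBTB22 at 0.06 (adjusted p = 0.816), were not called in R1.

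The chaperones around tapasin were lower or not called. Of 8 other genes for peptide loading and folding in the endoplasmic reticulum, none rose and 2 fell in R1 and 3 fell in R2. Among all genes, 21.4% fell in R1 and 14.8% in R2. PDIA3 (ERp57), which is bonded to tapasin in the loading complex, had 343 ± 152 in R1, 177 ± 19.2 in R2 and 498 ± 90.3 in control (SD, n = 4 each), and it fell in R1 (-0.61, adjusted p = 0.0366) and in R2 (-1.48, adjusted p = 0.00018). Its R1 and control ranges overlapped, with R1 replicate 2 at 568 and the control libraries at 420 to 581. ERP29 fell by 0.35 in R1 (adjusted p = 0.0205), also with overlapping ranges, and by 0.62 in R2 (adjusted p = 0.000978). HSPA5 (BiP) fell by 1.60 in R2 (adjusted p = 0.0106). The tapasin-related TAPBPL had a change of -0.12 in R1 and -0.28 in R2, the lectin chaperone CANX -0.13 and 0.03, and CALR -0.54 and -0.37, none of them past the threshold. The trimming enzymes ERAP1 (0.04 and -0.20) and ERAP2 (0.02 and 0.13) were not called either. Of all 8 aminopeptidases, LAP3 fell in R1 (-0.67), and TPP2 (0.42) and LNPEP (0.57) rose in R2.

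Among the heavy chains HLA-E rose in R1, and HLA-B and HLA-C spread widely between the libraries of R1 and of control. Heavy chain genes are closely related and polymorphic, so that reads may match several of them or differ from the reference, and how the authors' counting treated such reads is not given in the sources used here. HLA-E (30489509 to 30494194), a non-classical heavy chain that signals to the NKG2A receptor of natural killer cells, had values of 123, 192, 149 and 128 in R1, 104, 114, 118 and 99.8 in R2 and 83.6, 87, 122 and 115 in control. R1 lay above both other groups, narrowly so over control replicate 3, and R2 lay within the control range. HLA-E was 1.45-fold higher in R1 than in control (log2 change 0.53 ± 0.15 SE, adjusted p = 0.0118), with 0.11 in R2 against control (95% interval -0.22 to 0.44, adjusted p = 0.643). The fall in R2 against R1 (-0.42, adjusted p = 0.0344) lost its call without R1 replicate 2 (-0.29, adjusted p = 0.0944), R1 replicate 3 (-0.41, 0.0659), R2 replicate 1 (-0.40, 0.0763) or R2 replicate 4 (-0.38, 0.086).

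HLA-B (31353875 to 31357179), a classical heavy chain, was counted at a low level, with 25 to 208 reads per library. Its values were 3.49, 9.13, 3.95 and 3.37 in R1, 1.45, 1.16, 2.06 and 1.24 in R2 and 1.12, 1.64, 4.27 and 3.62 in control. R2 was uniformly low, R1 replicate 2 stood far above the other R1 libraries, and the control libraries split into a low and a high pair. HLA-B was 3.37-fold lower in R2 than in R1 (log2 change -1.38 ± 0.35 SE, adjusted p = 0.00523), with no overlap. Its changes of 0.82 in R1 (95% interval 0.07 to 1.57, adjusted p = 0.0712) and -0.56 in R2 (-1.31 to 0.19, adjusted p = 0.254) against control were not called. Without control replicate 3 the R1 change was 1.06 and passed the threshold (adjusted p = 0.0279), and without R1 replicate 2 it was 0.51. With R1 replicate 2 and control replicates 3 and 4 all left out, it was 1.14 (adjusted p = 0.00299), and the R2 change turned to 0.07 (adjusted p = 0.859).

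HLA-C (31268749 to 31272092), the classical heavy chain read by KIR receptors, had values of 49.1, 117, 60.9 and 47.2 in R1, 42.5, 52.1, 58.5 and 50.7 in R2 and 35.9, 43.1, 83.2 and 69.2 in control. All 3 groups overlapped, and the same libraries as for HLA-B were high. The change was 0.22 in R1 against control (95% interval -0.39 to 0.83, adjusted p = 0.554) and -0.11 in R2 against control (-0.72 to 0.50, adjusted p = 0.811), and -0.33 in R2 against R1 (-0.94 to 0.28, adjusted p = 0.36). Without R1 replicate 2 the R1 change turned to -0.07, and without R1 replicate 2 and control replicates 3 and 4 the R2 change turned to 0.36 (adjusted p = 0.121). The class I-like genes MR1, MICA and MICB had changes of 0.09, 0.29 and 0.05 in R1 and of -0.23, -0.15 and -0.04 in R2 against control, none of them past the threshold.

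Within groups the heavy chains moved together from library to library. After subtracting each group's mean, the Pearson correlation over the 12 libraries was 0.95 between HLA-B and HLA-C, 0.94 between HLA-B and HLA-E and 0.97 between HLA-C and HLA-E, against 0.82 between PSMB8 and PSMB9. TAPBP went with B2M at 0.88 and with HLA-B, HLA-C and HLA-E at 0.80, 0.85 and 0.86, so moving with the heavy chains was not particular to them. TAP2 ran against TAPBP at -0.80 and against B2M at -0.78. These are descriptions over 12 libraries that share the same scaling. R1 replicate 2 as the highest R1 library and control replicates 3 and 4 as the higher control pair occurred together for 5 of the 9 genes, HLA-B, HLA-C, HLA-E, B2M and TAPBP, against 16.1% of all genes. That pattern, too, was singled out after seeing the data.

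B2M, the light chain that every class I heavy chain needs to reach the surface, was the most abundant of the 9 and was lower in R2. Its values were 581, 643, 566 and 514 in R1, 396, 430, 316 and 373 in R2 and 510, 518, 638 and 622 in control. All R2 libraries lay below all others, and R1 overlapped control. The mean was 1.51-fold lower in R2 than in control (log2 change -0.59 ± 0.12 SE, adjusted p = 0.00232) and 1.52-fold lower in R2 than in R1 (-0.61 ± 0.12 SE, adjusted p = 0.0011). In R1 the change against control was 0.01, with a 95% interval of -0.25 to 0.28 (adjusted p = 0.938).

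The fall of B2M in R2 stood among falls of its neighbours, a comparison chosen after its values were seen. B2M lies on chromosome 15 from 44711517 to 44718145, and of the 13 other tested genes within 1 Mb 11 fell and none rose in R2 against control, with a median log2 change of -0.79. In R1 6 of the 13 fell and none rose, with a median of -0.31, while B2M itself was not called. Over all 358 tested genes placed on chromosome 15, 278 fell and 10 rose in R2 (median -0.77), and 126 fell and 43 rose in R1 (median -0.22). The B2M change of -0.59 in R2 was thus smaller in size than the chromosome's median. PDIA3, PSMA4 and SPPL2A, the other pathway genes on this chromosome, had changes of -1.48, -0.79 and -0.67 in R2. The part of the shift of the whole chromosome in the B2M result was not tested.

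**Figure D4:**
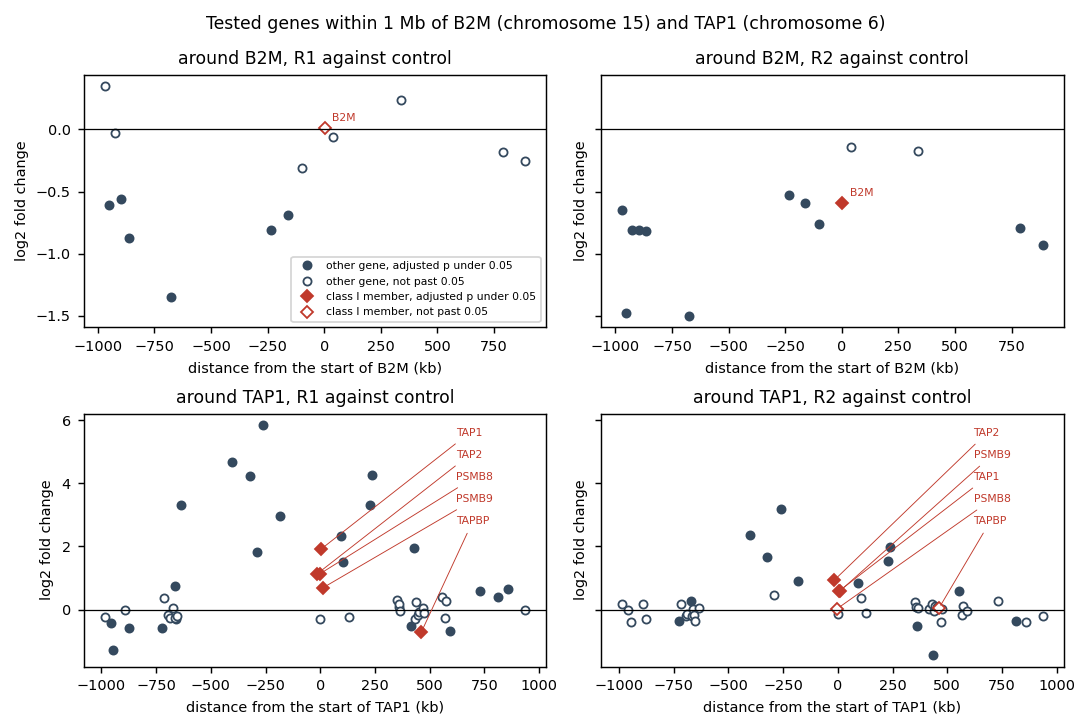
Log2 fold changes of tested genes against their distance in kb from the start of B2M (upper panels) and TAP1 (lower panels), for R1 against control on the left and R2 against control on the right, with class I genes as diamonds and filled marks where the adjusted p is under 0.05. Around B2M 11 of 13 other genes fell in R2, and around TAP1 the highest points are the MHC class II genes HLA-DRB1 (5.84 in R1) and HLA-DRA (4.68 in R1).

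Around TAP1 genes moved in both directions. Of the 46 other tested genes within 1 Mb that are not among the 9, 15 rose and 7 fell in R1 (median 0.05), and 9 rose and 4 fell in R2 (median 0.04). Over the 593 tested genes placed on chromosome 6, where 8 of the 9 genes lie, more rose than fell: 184 rose and 70 fell in R1 (median 0.15), and 146 rose and 36 fell in R2 (median 0.14). The part of this lean in the results on chromosome 6 was not tested. The largest rises there were of MHC class II genes, HLA-DRB1 at 5.84 in R1 and 3.18 in R2, HLA-DRA at 4.68 and 2.36. HLA-DQB1, the nearest tested gene below TAP2, had 2.96 in R1 and 0.90 in R2. It had only 0 to 2 reads per library in control and 9 to 26 in R2, so the size of its changes depends on the 0.5 added. HLA-DMB, the nearest beyond PSMB9, had 2.32 in R1 (adjusted p = 3.39e-06) and 0.83 in R2 (adjusted p = 0.0165), with 7 to 15 reads per library in control. TAP1, PSMB8 and PSMB9 overlap the gene PSMB8-AS1 in exons (GENCODE 29), which shares 456 bases with TAP1, 618 with PSMB8 and 174 with PSMB9. PSMB8 and PSMB9 share 139 bases, and HLA-B and HLA-C 35. TAP2 shares 2064 of its 6390 exon bases with AL669918.1 on the same strand. HLA-B shares 542 of its 3051 with AL671883.2 on the opposite strand. Neither AL669918.1 nor AL671883.2 had a row. The library kit does not mark strand, so reads from these stretches cannot be assigned to a strand. PSMB8-AS1 itself had 17 to 48 reads per library and was not called, at -0.30 in R1 and -0.15 in R2.

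Set per kilobase of the principal GENCODE 29 transcript, levels can be ordered between genes. In R1 B2M stood highest at 338 ± 31 per kb, followed by HLA-E (56.9 ± 12), TAPBP (47.4 ± 8.74), PSMB8 (46.8 ± 4.89) and HLA-C (44.7 ± 21.6), whose ranges overlapped each other. PSMB9 (25.9 ± 3.28) and TAP2 (22.7 ± 4.55) overlapped as well, TAP1 stood at 15.1 ± 2.84 and HLA-B at 3.22 ± 1.79 (SD, n = 4 libraries throughout). In R2 the order was B2M (222 ± 28.2), TAPBP (79 ± 7.29), HLA-E (41.8 ± 3.21), HLA-C (33.2 ± 4.28), PSMB9 (24.4 ± 3.8), PSMB8 (21.8 ± 4.3), TAP2 (20.3 ± 6.36), TAP1 (5.8 ± 0.617) and HLA-B (0.956 ± 0.262). In control it was B2M (335 ± 39.7), TAPBP (77.7 ± 13.2), HLA-E (39.2 ± 7.52), HLA-C (37.7 ± 14.4), PSMB8 (21.1 ± 1.58), PSMB9 (15.8 ± 1.7), TAP2 (10.2 ± 1.64), TAP1 (3.83 ± 0.456) and HLA-B (1.72 ± 0.983). In R2 PSMB9, PSMB8 and TAP2 overlapped, and HLA-C reached down to 27.7 where PSMB9 reached 27.8. In control HLA-E and HLA-C overlapped, and HLA-C reached down to 23.4 where PSMB8 reached 23.5. With these lengths mean TAP1 RNA per kb was below that of TAP2 in every group, without overlap in R2 and control, while in R1 TAP1 reached 18.6 and TAP2 went down to 16.1. This order rests on the length chosen, 2959 bases for TAP1 and 2497 for TAP2. All annotated exons together cover 4805 bases for TAP1 and 6390 for TAP2, and levels over those lengths were not computed. B2M RNA per kb exceeded each heavy chain in every group.

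The regulators of class I genes did not share a direction. NLRC5, the class I transactivator, averaged 20.4 ± 2.54 in R1, 9.98 ± 1.45 in R2 and 15.7 ± 2.18 in control (SD, n = 4 each). It rose in R1 (0.37, adjusted p = 0.0435) with overlapping ranges, fell in R2 against control (-0.63, adjusted p = 0.00412) and was 2.05-fold lower in R2 than in R1 (adjusted p = 6.21e-05). IRF1, a transcriptional activator that interferon induces, had a change of 0.39 in R1 (adjusted p = 0.143) and fell in R2 (-0.77, adjusted p = 0.0135). The IRF1 ranges of R2 and control overlapped. R2 reached 11.2, while the control libraries had 22.4, 23.6, 11 and 13.5. IRF2, which competes with IRF1 for the same elements, fell in R1 (-0.62, adjusted p = 0.00203). RFX5, which binds the X box of class I and class II promoters, changed by -0.24 in R1 (adjusted p = 0.0555) and 0.22 in R2 (adjusted p = 0.0918). NFKB1 rose in R1 (0.32, adjusted p = 0.0172), while RELA had -0.20 in R1 and 0.21 in R2, neither called. Of 15 class I transcription factors 3 rose and 4 fell in R1, and 1 rose and 4 fell in R2. Of all genes, 22.4% rose and 21.4% fell in R1, and 13.6% rose and 14.8% fell in R2. Of 9 listed negative regulators (EZH2 and partners) 2 rose and 1 fell in R1, HDAC1 at 0.54 and EED at 0.64 among the risen, and 1 rose in R2, DNMT3B at 0.42.

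Interferon genes changed in part. Of 12 interferon-gamma signalling genes with a row 4 rose and 1 fell in R1, and 2 rose and 2 fell in R2. The kinase JAK2 rose in R1 (0.82, adjusted p = 0.00191) and in R2 (0.64, adjusted p = 0.0148), and JAK1 rose in R1 (0.27, adjusted p = 0.0483) and in R2 (0.48, adjusted p = 0.00368). The receptor chain IFNGR2 rose in R1 (0.77, adjusted p = 0.0371) and was lower in R2 than in R1 (-1.30, adjusted p = 0.00175), and IFNGR1 had 0.19 and -0.06, neither called. Of 29 type I interferon and interferon-stimulated genes 10 rose and 5 fell in R1, and 4 rose and 8 fell in R2. ISG15, a ubiquitin-like protein, rose in R1 (1.17, adjusted p = 6.34e-05), while IRF7, an interferon-induced regulator, fell in R1 (-3.15, adjusted p = 3.85e-08) and in R2 (-1.65, adjusted p = 3.25e-05).

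MHC class II genes, which share the X-box factors with class I, had larger median changes than the 9 genes. Of 10 class II genes with a row, 9 rose and none fell in R1 (median 3.14), 7 rose and none fell in R2 (median 1.22), and 10 of 10 were lower in R2 than in R1 (median -1.91). HLA-DRA averaged 111 ± 19.2 in R1, 22.1 ± 5.25 in R2 and 3.9 ± 1.12 in control (SD, n = 4 each). Of 10 genes of class I turnover 2 rose and 2 fell in R1, and 2 rose and 3 fell in R2. DERL2 fell in both (-0.65 and -0.95), and the ubiquitin ligase MARCH4 rose in R2 (0.95, adjusted p = 0.00894). The lists were drawn up with earlier results of these data known, so the counts of every list are a description. They stand beside shares of all genes of 22.4% risen and 21.4% fallen in R1 against control. In R2 against control the shares were 13.6% and 14.8%, and in R2 against R1 22.8% and 24%.

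**Figure D5:**
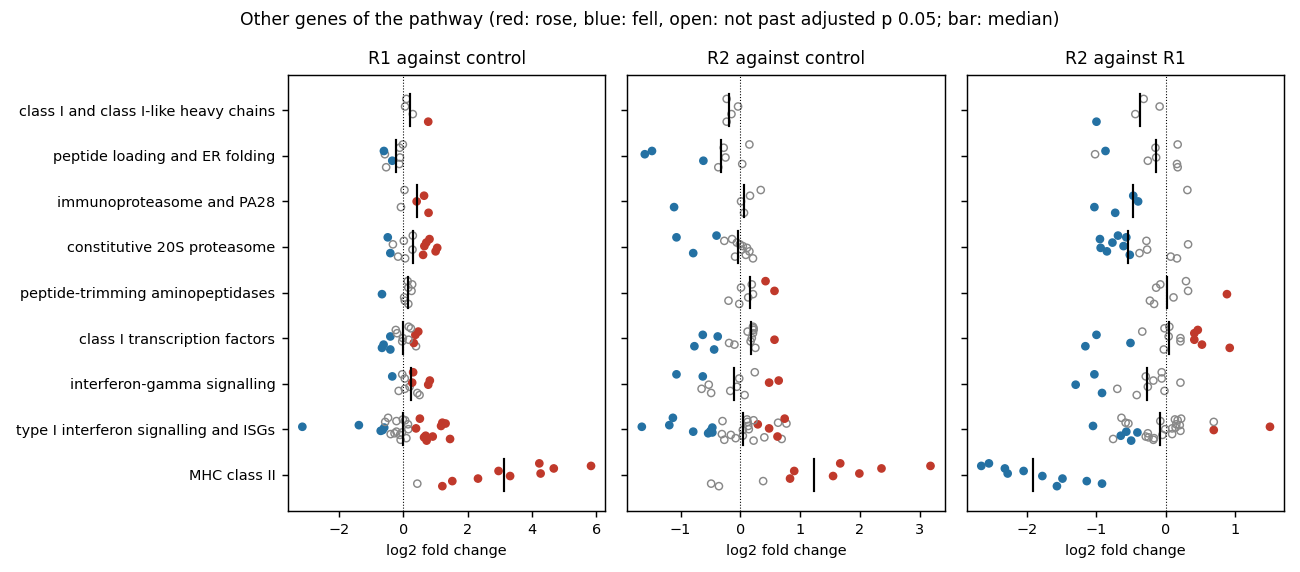
Log2 fold change of each gene (points) in 9 pathway lists without the 9 genes, for R1 against control, R2 against control and R2 against R1, with red for risen, blue for fallen, open for not past an adjusted p of 0.05, a bar at the list's median, and each panel on its own scale. MHC class II has 9 risen genes in R1 and 7 in R2, and the loading and folding list has no risen gene and 2 fallen in R1 and 3 in R2.

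Genes with the most similar pattern to each of the 9 were ranked by Pearson correlation of log2 values over the 12 libraries, among 10391 genes with a mean value of at least 5. TAP1 was most like HSPB8 (0.996), a small heat shock protein, and CYB561 (0.989), and PSMB8 most like TMEM251 (0.985) and GSTO1 (0.981). TAPBP was most like TWIST1 (0.98), a transcription factor of mesenchymal cells. HLA-E was most like BST2 (0.951) and IFI6 (0.948), both interferon-stimulated genes. HLA-B had EML2 (0.978) and the glycolytic enzyme PGK1 (0.965) nearest to it, and HLA-C had WIPI1 (0.952), FAM162A (0.935) and hexokinase HK2 (0.933). B2M was most like CSRP2 (0.966) and ITGB4 (0.96), TAP2 like WDR3 (0.965) and REPS1 (0.955), and PSMB9 like RAB13 (0.968) and EFHD2 (0.958). With so many genes and 12 libraries in 3 groups, high values arise for many genes, and the correlations describe the order of libraries.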

How the data were processed

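RNA was extracted with an RNeasy kit and made into libraries with TruSeq v2, per the labels' protocols. STAR, edgeR and GRCh38 are named in the submitters' processing notes, without versions. Each deposited table gives 1 library-scaled signal value per gene symbol, normalised by the authors to an adjusted library size (CPM). All values (100%) were whole multiples of a per-library step within 0.001 reads, which recovered the reads. Counts were assumed when the tests were chosen, so limma 3.58.1 (R 4.3.3, trend, log2(value + 0.5), 12 libraries, 3 group means) replaced the edgeR test, and P-values were two-sided. edgeR 4.0.16 on the recovered reads called 5645, 3564 and 5988 genes for R1 against control, R2 against control and R2 against R1, of which 5525, 3502 and 5881 were also called by limma. Listed genes reached 1 CPM in at least 4 libraries, and no further filter was applied. Ratios were compared by exact permutation tests. Promoters and places came from RefSeq GRCh38.p14, where 11418 of 12929 symbols were placed. The 9 members and the lists were chosen with earlier results of these data known. Named genes are the members, fixed pathway genes, the 2 called list genes with the smallest p, the 3 most similar genes and nearest neighbours. MR1, MICB, HSPA5 and SPPL2A, outside this rule, were named after their values were seen. Some fixed pathway genes are not reported here. The fit was tested on simulated data. Alternatives covered scaling, pseudocount, a filter on low values, edgeR, DESeq2 1.42.0, the trend, the samples fitted, a replicate block and each library left out.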

Additional observations from a re-analysis of the deposited data

Results flagged for a closer look

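In R1, replicate 2 lay far from the other libraries for HLA-B and for TAPBP. The gap from its HLA-B value of 9.13 to the next R1 library was 0.899 of the group's range, and for TAPBP, at 114, it was 0.843, both above the 95% critical value of Dixon's test for 4 samples. These were 2 of 27 groups of 4 libraries looked at, and chance gives about 1 in 20.

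The effect against control differed between R2 and R1 for 6 of the 9 genes, by the test of R2 against R1 itself, since the control libraries cancel. Of all genes, 46.8% were called in that test. The difference in log2 change, R2 minus R1, was -1.38 for HLA-B, -0.42 for HLA-E, -0.61 for B2M, -1.34 for TAP1, 0.74 for TAPBP and -1.10 for PSMB8. The HLA-E difference is the one that lost its call when single libraries were left out.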

How the results depend on the processing

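Counts of risen and fallen members stayed within 1.5 times under every alternative run, and so did the numbers of all genes called. Leaving out each library gave 5 to 6 risen members in R1 against control and 4 to 5 fallen in R2 against R1, and 4943 to 5877, 2795 to 4223 and 5245 to 6171 genes called in the 3 comparisons. Some uncalled changes changed sign. The B2M change in R1 against control was -0.01 with DESeq2 size factors and -0.01 in the DESeq2 test. When each library was left out it ranged from -0.04 to 0.07, the HLA-C change in R1 from -0.07 to 0.42, and those in R2 against control from -0.31 to 0.09 for HLA-C, -0.04 to 0.11 for TAPBP and -0.09 to 0.14 for PSMB8. PSMB9 in R2 against R1 ranged from -0.15 to 0. HLA-E in R2 against R1 ranged from -0.51 to -0.29 (adjusted p 0.0214 to 0.0944). HLA-B in R1 ranged from 0.51 to 1.06 (adjusted p 0.0279 to 0.218). Without R1 replicate 2 and control replicates 3 and 4, chosen after seeing the data, the R2 changes against control were 0.07 for HLA-B and 0.36 for HLA-C, and 6 members rose in R1; the cause was not tested.

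Same-numbered libraries were not treated as pairs, since no comparison had a correlation of deviations over 0.1 in all 4 pairs. It was over 0.1 in 5 of 12 pairs, and 6 of 12 were highest with their own number. For R2 against R1 it was 0.11, 0.11, 0.07 and 0.13, a hint from the data of a weak pairing. With the replicate number as a block, 5798, 3733 and 6162 genes were called and the members' counts stayed at 5 risen and 1 fallen, 3 risen and 1 fallen, and 1 risen and 5 fallen. The ratio differences under the block kept their size, and 4 pairs cannot give an exact p below 0.125. With a mean under 5, HLA-B had no value under the filter on low values. Depth limits HLA-B most, where 3 reads correspond to values of 0.0728 to 0.158.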
